A study of Mus musculus with 11 samples.

Results

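The 6 genes of the collagen VI chains, Col6a1 to Col6a6, were followed in bulk RNA-Seq of whole distal tibiae. They were taken by gene symbol from the merged table of raw counts, which holds 22600 genes, and all 6 were among the 16496 genes that passed the filter on low counts. The family was selected on the same Control against BMAd-DTA comparison, with the levels in these libraries already known. Its differences between genotypes are therefore given below as values and fitted changes with their standard errors, and without a test.

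The study asked what bone marrow adipocytes (BMAds) do for the bone around them by killing these cells. In the 7 BMAd-DTA mice, Cre recombinase removed a stop cassette from ROSA-DTA, so that the cells making Cre also made diphtheria toxin A. All mice, the 4 controls included, carried Osterix-FLPo and FAC, an Adipoq allele whose Cre cassette is turned into the working orientation by FLPo, so both groups had the BMAd-Cre driver and only the BMAd-DTA mice had the toxin allele. Both groups were 24 weeks old, on a mixed C57BL6/SJL background and fed ad libitum, and each library came from 1 mouse. No treatment is described for the RNA-Seq mice in particular. The study's legend that includes the RNA-Seq panels opens with mice given calcein injections before dissection. Whether the mice of these libraries received calcein is not stated. The study describes a subset of marrow adipocytes that remains in distal tibiae of BMAd-DTA mice. The labels give no sex and the study describes male mice at baseline. Yet Xist had 13810 to 20260 counts in every library and Y-linked genes had 0 or 1, the pattern of female mice in both groups.

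Collagen VI is a beaded-filament collagen that surrounds cells in muscle, cartilage, tendon, skin, nerve and adipose tissue. Its unit is a trimer of the chains α1 (Col6a1), α2 (Col6a2) and a long chain, usually α3 (Col6a3). The chains α4, α5 and α6 (Col6a4, Col6a5 and Col6a6) resemble α3 and may take its place. Loss of α1, α2 or α3 in people causes muscle disease, and a fragment cut from the end of α3, endotrophin, is known from adipose tissue.

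The chains lie at 3 places in the genome, all on the minus strand (GRCm38, the assembly of the mm10 build used for alignment, with GENCODE M21 gene models). Col6a2 (chr10:76595762-76623630) and Col6a1 (chr10:76708792-76726168) are neighbors with 85.2 kb between them. Col6a3 stands alone (chr1:90765923-90843971). Col6a6 (chr9:105687809-105828160), Col6a5 (chr9:105856078-105960643) and Col6a4 (chr9:105989454-106096783) follow each other in a tandem cluster of 409 kb, with gaps of 27.9 kb and 28.8 kb. The promoter windows of the 3 most abundant chains and of Col6a5 are printed because Col6a1 and Col6a2 varied together within the groups while Col6a5 had the largest difference between them. Each holds 300 bases across the gene start, from RefSeq on GRCm38.p6, 5′ to 3′ on the gene's own strand. Capitals mark matches to the motifs searched.

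Col6a1: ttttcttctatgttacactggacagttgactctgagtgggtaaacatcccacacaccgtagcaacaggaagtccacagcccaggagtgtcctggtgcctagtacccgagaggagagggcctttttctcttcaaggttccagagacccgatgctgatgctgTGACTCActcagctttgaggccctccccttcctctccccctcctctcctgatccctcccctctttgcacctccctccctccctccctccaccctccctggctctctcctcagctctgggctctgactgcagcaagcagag
Col6a2: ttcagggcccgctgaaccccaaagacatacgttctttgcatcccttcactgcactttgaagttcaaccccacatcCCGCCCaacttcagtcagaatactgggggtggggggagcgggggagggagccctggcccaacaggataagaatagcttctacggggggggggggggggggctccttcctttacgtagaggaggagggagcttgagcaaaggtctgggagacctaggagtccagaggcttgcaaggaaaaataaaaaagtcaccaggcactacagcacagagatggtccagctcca
Col6a3: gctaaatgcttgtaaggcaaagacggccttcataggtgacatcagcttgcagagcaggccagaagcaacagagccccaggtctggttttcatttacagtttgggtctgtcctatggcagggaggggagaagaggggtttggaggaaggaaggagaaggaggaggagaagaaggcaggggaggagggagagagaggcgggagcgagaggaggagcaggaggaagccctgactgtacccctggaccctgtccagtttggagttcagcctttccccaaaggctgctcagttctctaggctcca
Col6a5: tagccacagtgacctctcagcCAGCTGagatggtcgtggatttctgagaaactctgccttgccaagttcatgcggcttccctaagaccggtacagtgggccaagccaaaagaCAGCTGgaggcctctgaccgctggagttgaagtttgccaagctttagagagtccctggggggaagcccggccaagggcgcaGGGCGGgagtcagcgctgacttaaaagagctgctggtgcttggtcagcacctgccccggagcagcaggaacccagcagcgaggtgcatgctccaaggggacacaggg

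The windows are chr10:76725995-76726294, chr10:76623581-76623880, chr1:90843922-90844221 and chr9:105960594-105960893, in that order. Col6a2 has another window in RefSeq, which was not printed. The motifs searched on both strands were the TATA box TATAAA, the GC box GGGCGG, the E-box CAGCTG, the RUNX motif TGTGGT and the AP-1 motif TGANTCA. A GC box on the opposite strand reads CCGCCC, as in the Col6a2 window. Of 32851 windows in the RefSeq table, 13.6% held the TATA box, 35.7% the GC box, 16.3% the E-box, 16.8% the RUNX motif and 7.81% the AP-1 motif. The Col6a5 window held 2 E-boxes, starting at -229 and -138 from the gene start, and 1 GC box at -57. The Col6a1 window held 1 AP-1 motif at -90, the Col6a2 window 1 GC box at -175, and the Col6a3 window none of the 5 motifs. Positions are counted from the RefSeq gene start. For Col6a1 that start lies downstream of the GENCODE start given above, and its AP-1 motif lies inside the GENCODE gene. Col6a1 and Col6a2 shared none of these motifs, and the only motif in more than 1 of the 4 windows was the GC box, in Col6a2 and Col6a5. The GC content was 56.3% to 60% in these 4 windows, beside a median of 52.7% over all windows.

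The libraries held 16969529 to 18637663 counts on genes in the merged table. Levels are given as CPM, the usual count per fixed library size, here with TMM scaling of the library sizes. Markers of the labelled tissue were present, since 8 markers of osteoblasts and osteocytes summed to 1845 to 20521 CPM in every library and 6 hematopoietic markers to 10911 to 16580 CPM. The 6 adipocyte markers summed to 326 to 855 CPM in controls and 59.7 to 461 CPM in BMAd-DTA libraries. The fitted level of each of the 6 was below that of controls, and the decrease of Retn passed the test (edgeR adjusted p = 0.0205). The 10 skeletal muscle markers ranged widely within both groups, from 14.5 to 998 CPM in controls and from 15.4 to 801 CPM in BMAd-DTA libraries. In bulk tissue, fewer cells of a type and less RNA per cell cannot be told apart.

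Col6a5 had the largest fold between its highest and lowest library, 318-fold, of the 5 chains that were counted in every library. In controls its level was 27.7, 47.9, 164 and 37.8 CPM in Control 1 to 4, from 502, 813, 2772 and 729 counts. In BMAd-DTA libraries the lowest was 0.516 CPM, the median 2.65 CPM and the highest 17.7 CPM, from 9 to 322 counts. All 7 BMAd-DTA libraries lay below all 4 controls. The highest BMAd-DTA values were 17.7 CPM in BMAd-DTA 6 and 17.2 CPM in BMAd-DTA 7, and the other 5 lay between 0.516 and 3.33 CPM. The means were 69.3 ± 63.5 CPM (SD, n = 4) in Control and 6.59 ± 7.45 CPM (SD, n = 7) in BMAd-DTA, a 10.5-fold ratio of the means. The fitted log2 fold change was -3.39 (SE 0.73). Without Control 3, the library with the highest value, it was -2.52, and without BMAd-DTA 6 or BMAd-DTA 7 it was -3.85.

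**Figure D1:**
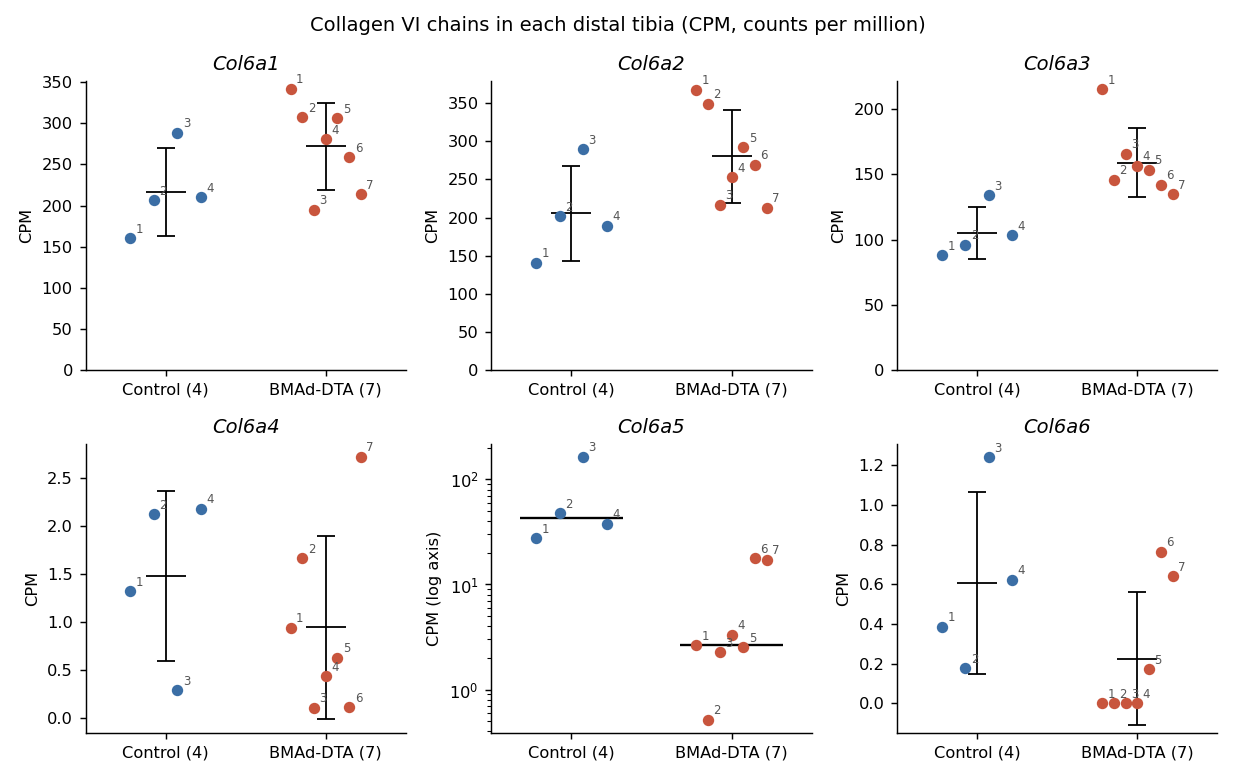
CPM of each collagen VI chain in each library, with 1 dot per mouse and its replicate number beside it. Bars give the mean ± SD, except for Col6a5, which has a log axis and a line at each group's median. Col6a5 was 27.7 to 164 CPM in the 4 controls and 0.516 to 17.7 CPM in the 7 BMAd-DTA libraries, while Col6a3 was 88.2 to 134 CPM in controls and 135 to 215 CPM in BMAd-DTA libraries.

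The α3 chain lay the other way. Col6a3 was 88.2, 96.2, 134 and 103 CPM in Control 1 to 4, and 135 CPM at the lowest, 153 CPM at the median and 215 CPM at the highest in BMAd-DTA libraries. All 7 BMAd-DTA libraries lay above all 4 controls, but the gap was narrow, from 133.9 CPM in Control 3 to 134.7 CPM in BMAd-DTA 7. The means were 105 ± 19.96 CPM (SD, n = 4) and 159 ± 26.7 CPM (SD, n = 7), with a fitted log2 fold change of 0.59 (SE 0.13). Of all genes tested, 1.78% had no overlap between the groups and a higher level in BMAd-DTA, 1.04% had no overlap and a lower level, and 0.0788% had an adjusted p under 0.05 in either direction. Because the family was selected on this comparison, nothing is read from its count of 2 such chains.

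Col6a1 and Col6a2, the chains that every collagen VI trimer needs, had higher means in BMAd-DTA with overlapping groups. Col6a1 was 160, 207, 288 and 210 CPM in Control 1 to 4, and 195 CPM at the lowest, 281 CPM at the median and 342 CPM at the highest in BMAd-DTA. Col6a2 was 141, 202, 290 and 190 CPM in the same controls, and 213 CPM, 269 CPM and 368 CPM at those points in BMAd-DTA. For each gene, 3 of the 7 BMAd-DTA libraries exceeded every control. Their fitted log2 fold changes were 0.33 (SE 0.17) and 0.45 (SE 0.19), so that Col6a1, Col6a2 and Col6a3 all had higher fitted levels in BMAd-DTA bones while Col6a4, Col6a5 and Col6a6 had lower ones. Leaving out Control 1 brought the log2 fold change of Col6a1 to 0.21, and leaving out Control 3 brought it to 0.50.

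The other α3-like chains were barely counted. Col6a4, whose human counterpart is a pseudogene, had 226 counts over all libraries. Its level was 1.32, 2.12, 0.295 and 2.18 CPM in Control 1 to 4, and 0.113 CPM at the lowest, 0.631 CPM at the median and 2.72 CPM at the highest in BMAd-DTA, with overlapping groups and a log2 fold change of -0.64 (SE 0.71). Without BMAd-DTA 7 that change was -1.18, and without Control 4 it was -0.39. Col6a6 had 71 counts over all libraries. Its level was 0.386, 0.177, 1.24 and 0.622 CPM in Control 1 to 4, from 7, 3, 21 and 12 counts. BMAd-DTA 1 to 4 had 0 counts, which allows up to 3 counts or 0.164 to 0.177 CPM in each, covering counting error only, and the highest BMAd-DTA value was 0.763 CPM in BMAd-DTA 6. The groups overlapped, and the log2 fold change of -1.39 (SE 0.93) moved to -0.80 without Control 3. The fitted change of Col6a4 was smaller than the spread between mice of 1 genotype, an SD of 1.32 log2 CPM. That of Col6a6 was of the size of its SD, 1.23 log2 CPM.

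Levels of different chains were compared per kb of merged exons. The order of the means over all 11 libraries was Col6a1 with 57.5 ± 13.2 CPM per kb (SD, n = 11), Col6a2 with 30.4 ± 8.29, Col6a3 with 11.7 ± 2.99, Col6a5 with 3.12 ± 5.03, Col6a4 with 0.134 ± 0.108 and Col6a6 with 0.0397 ± 0.0446 CPM per kb. Col6a1 was above Col6a2, and Col6a2 above Col6a3, in 11 of 11 libraries. The next steps did not hold in every mouse. Col6a3 was above Col6a5 in 10 libraries, Col6a5 above Col6a4 in 10, and Col6a4 above Col6a6 in 9. The exceptions at the first and second of these steps were Control 3, where Col6a5 reached 17.4 CPM per kb against 11.2 CPM per kb for Col6a3, and BMAd-DTA 2, where Col6a5 was 0.0548 CPM per kb against 0.195 CPM per kb for Col6a4. With the longest annotated transcript as the length, Col6a2 was nearer to Col6a1, at 51.5 against 61.4 CPM per kb. The mean of Col6a5 covers groups that differ, at 7.36 ± 6.75 CPM per kb (SD, n = 4) in controls and 0.700 ± 0.791 CPM per kb (SD, n = 7) in BMAd-DTA. By its mean per kb over all libraries, Col6a1 ranked above 95.2% of the genes tested.

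The make-up of the chain pool was compared as shares per kb. Col6a5 was 4.59%, 5.995%, 13.4% and 4.80% of the summed CPM per kb of the 6 chains in Control 1 to 4, and 0.0439% to 2.07% in BMAd-DTA libraries. The share of Col6a1 was 50.9% to 57.3% in controls and 52.6% to 59.4% in BMAd-DTA. Col6a2 held 26.4% to 28.6% in controls and 28.1% to 33.7% in BMAd-DTA. Col6a3 held 8.65% to 11.5% in controls and 9.78% to 16.4% in BMAd-DTA. Per kb, Col6a5 stood to Col6a3 at a ratio of 0.399 to 1.55 in controls and 0.0045 to 0.162 in BMAd-DTA libraries. The sum of all 6 chains was 90.5 ± 27.6 CPM per kb (SD, n = 4) in controls and 110 ± 19.9 CPM per kb (SD, n = 7) in BMAd-DTA, with ranges that overlapped.

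**Figure D2:**
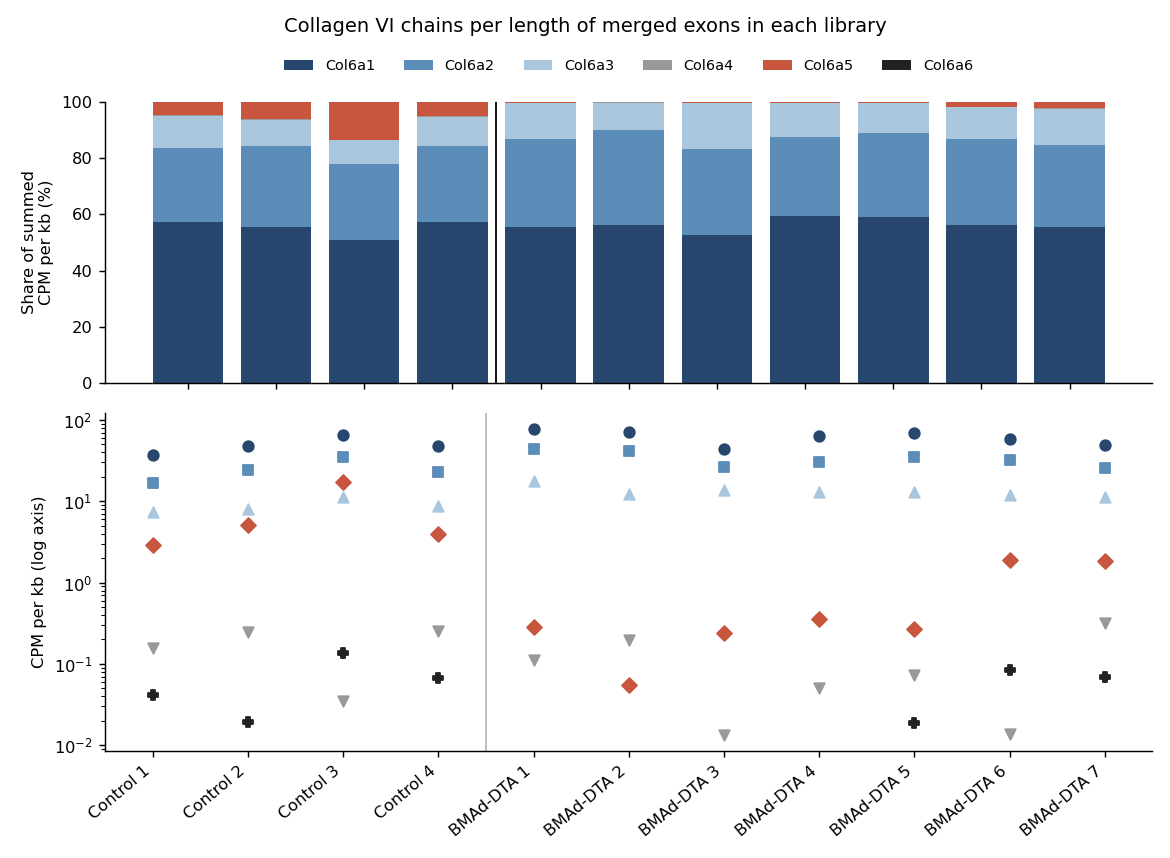
Collagen VI chains per kb of merged exons in each library, controls left of the line. The upper bars stack each chain's share of the summed CPM per kb, in percent, and the lower points show each chain's CPM per kb on a log axis in the same colors, with libraries at 0 counts left out. The share of Col6a5 was 4.59% to 13.4% in controls and at most 2.07% in BMAd-DTA, and the α1, α2 and α3 chains kept their order in all 11 libraries.

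The family was chosen on the difference between genotypes, with the levels in these libraries already known. Whether variation among mice of the same genotype played a part in that choice cannot be shown. The same limit holds for the correlations below. After removal of the group means, the SD of log2 CPM was 1.53 for Col6a5. Among 12973 genes averaging at least 50 counts, 73 genes, or 0.563%, had a larger SD, and the median SD was 0.17. For Col6a5 the SD was 1.12 in Control and 1.70 in BMAd-DTA. Its rank rests in part on low counts, since BMAd-DTA 1 to 5 had 9 to 61 counts each. The SD was 0.31 for Col6a1, 0.35 for Col6a2 and 0.23 for Col6a3, with larger values in 16.8%, 13.0% and 29.3% of those genes. The spread of Col6a5 among mice of 1 genotype was thus larger than that of the α1, α2 and α3 chains.

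Col6a1 and Col6a2 varied together. Their group-centred log2 CPM had a Pearson r of 0.95 over 11 libraries (permutation test, two-sided, p = 5e-05, adjusted p = 0.00315 over 63 relations) and a Spearman rho of 0.89 (permutation test, p = 0.00049, adjusted p = 0.0309). The r was 0.94 without the 2 libraries farthest from the median of Col6a1, and 0.92 within the 7 BMAd-DTA libraries. It was the only relation of the 15 chain pairs and 48 pairs of a chain with a marker score past the threshold by either measure, although 7 of the 63 had an unadjusted p under 0.05 by Pearson r. Col6a3 had an r of 0.66 with Col6a1 and 0.70 with Col6a2 (permutation test, adjusted p = 0.248 for both). Col6a5 had an r of -0.05, -0.08 and 0.02 with Col6a1, Col6a2 and Col6a3 (permutation test, adjusted p = 0.978 for each). Those values joined unlike patterns, since within the 7 BMAd-DTA libraries the r was -0.43, -0.56 and -0.34, and within the 4 controls, too few for a test, it was 0.95, 0.96 and 0.96. The difference between the groups was not tested. The 6 fibroblast markers, which summed to 276 to 336 CPM in controls and 283 to 408 CPM in BMAd-DTA, had a negative r with Col6a1 and Col6a2 of -0.67 and -0.66 (permutation test, adjusted p = 0.248 for both). The 4 Schwann cell markers summed to 102 to 125 CPM in controls and 95.2 to 128 CPM in BMAd-DTA.

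Within the tandem cluster, Col6a5 and Col6a6 had an r of 0.83 (permutation test, p = 0.00256, adjusted p = 0.0806) and a rho of 0.51 (permutation test, adjusted p = 0.472), which did not pass. The r was 0.58 without the 2 libraries farthest from the median of Col6a5, and Col6a6 rested on 0 to 21 counts in each library. Col6a5 and Col6a4 had an r of -0.29 (permutation test, adjusted p = 0.832). For the genes that flank the cluster and passed the filter, the change between genotypes is given, and none of them was called. Atp2c1 and Pik3r4 on 1 side had log2 fold changes of -0.16 and 0.05 (edgeR, adjusted p = 0.462 and 0.849), and D030055H07Rik and Glyctk on the other side 0.85 and 0.21 (edgeR, adjusted p = 0.403 and 0.650).

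**Figure D3:**
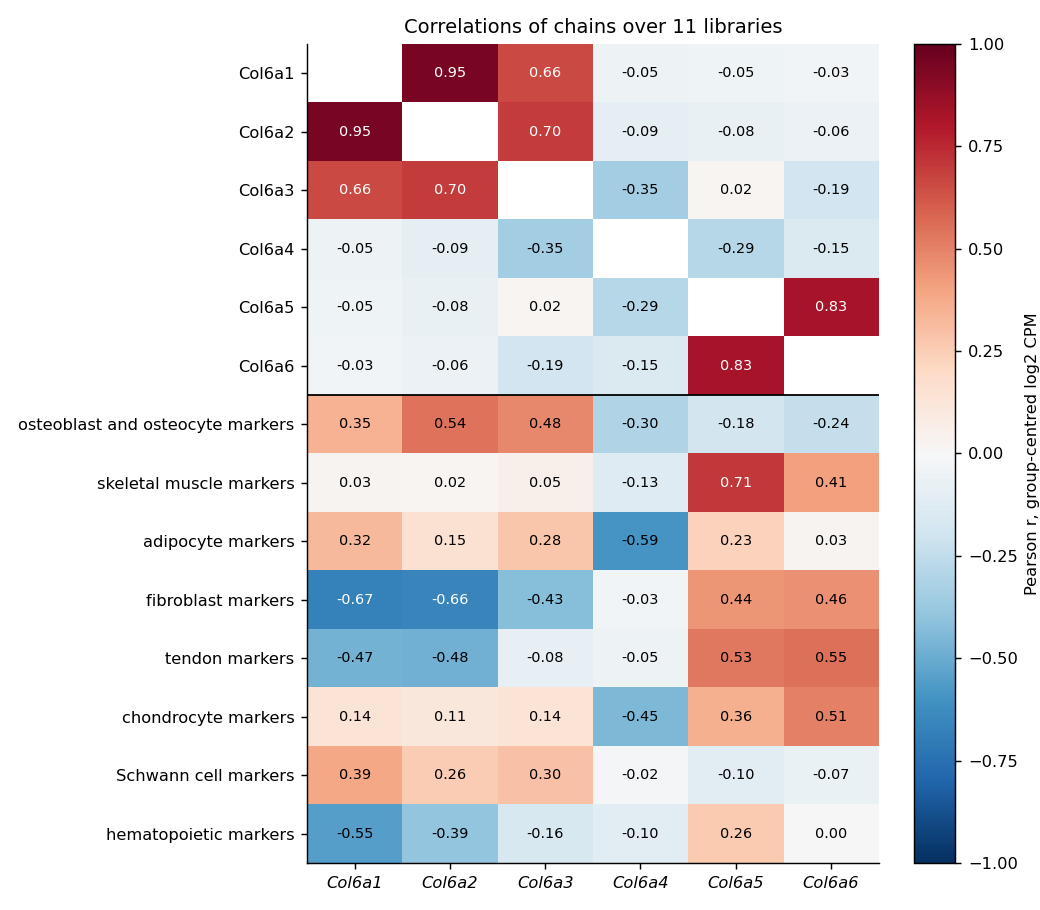
Pearson r of log2 CPM after removal of each group's mean, over 11 libraries, for each chain (columns) with the other chains and with 8 marker scores, each the mean log2 CPM of a list (rows). Red is positive and blue is negative. Of the 63 relations only Col6a1 with Col6a2 (0.95) passed the adjusted permutation test.

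Col6a5 was also set beside markers of skeletal muscle. Within groups, Col6a5 and the muscle score had an r of 0.71 (permutation test, p = 0.0154, adjusted p = 0.248) and a rho of 0.78 (permutation test, p = 0.00636, adjusted p = 0.2), which did not pass. The r was 0.69 without the 2 libraries farthest from the median of the score, 0.83 within the 7 BMAd-DTA libraries and 0.45 within the 4 controls. Control 3 had the highest Col6a5 and the highest muscle sum, 998 CPM. BMAd-DTA 6 and BMAd-DTA 7 had muscle sums of 801 and 469 CPM, the 2 highest of their group, and the 2 highest Col6a5 levels of their group.

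The values of libraries with similar muscle sums are given side by side, as a description that includes a single control with few muscle markers. Control 4 had a muscle sum of 14.5 CPM and 37.8 CPM of Col6a5, while BMAd-DTA 2, 3 and 5 had muscle sums of 15.4, 20.5 and 18.5 CPM and 0.516, 2.27 and 2.53 CPM of Col6a5. Control 1 and 2, with muscle sums of 384 and 418 CPM, had 27.7 and 47.9 CPM of Col6a5, above the 17.2 CPM of BMAd-DTA 7. With the muscle score as a covariate, the log2 fold change of Col6a5 was -3.26 (SE 0.53). Without Control 3 and BMAd-DTA 6, the 2 libraries richest in muscle markers, an alternative chosen after seeing the data, it was -2.98 (SE 0.69).

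Col6a5 was set beside adipocyte markers as well. The adipocyte score had an r of 0.23 with Col6a5 within groups (permutation test, adjusted p = 0.883). The r was 0.18 within the 7 BMAd-DTA libraries and 0.50 within the 4 controls. Control 3, with the highest Col6a5, also had the highest adipocyte sum, 855 CPM. Control 4 had an adipocyte sum of 326 CPM, below the 406, 461 and 402 CPM of BMAd-DTA 4, 5 and 6, and its Col6a5 of 37.8 CPM was above their 3.33, 2.53 and 17.7 CPM. BMAd-DTA 7 had an adipocyte sum of 64.5 CPM and 17.2 CPM of Col6a5. The markers of epidermis were near 0, with sums of 0.117 to 1.89 CPM in all libraries. Of the 5 markers, 4 were below the filter with at most 15 counts over all libraries, namely Krt5, Krt14, Krt1 and Lor. The osteoblast and osteocyte score had an r of -0.18 with Col6a5 within groups (permutation test, adjusted p = 0.978). It was -0.73 within the 7 BMAd-DTA libraries and 0.83 within the 4 controls. For the fibroblast and tendon scores the r with Col6a5 was 0.73 and 0.61 within the 7 BMAd-DTA libraries, and -0.34 and 0.08 within the 4 controls. The part of these cell types in the level of Col6a5 was not tested.

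**Figure D4:**
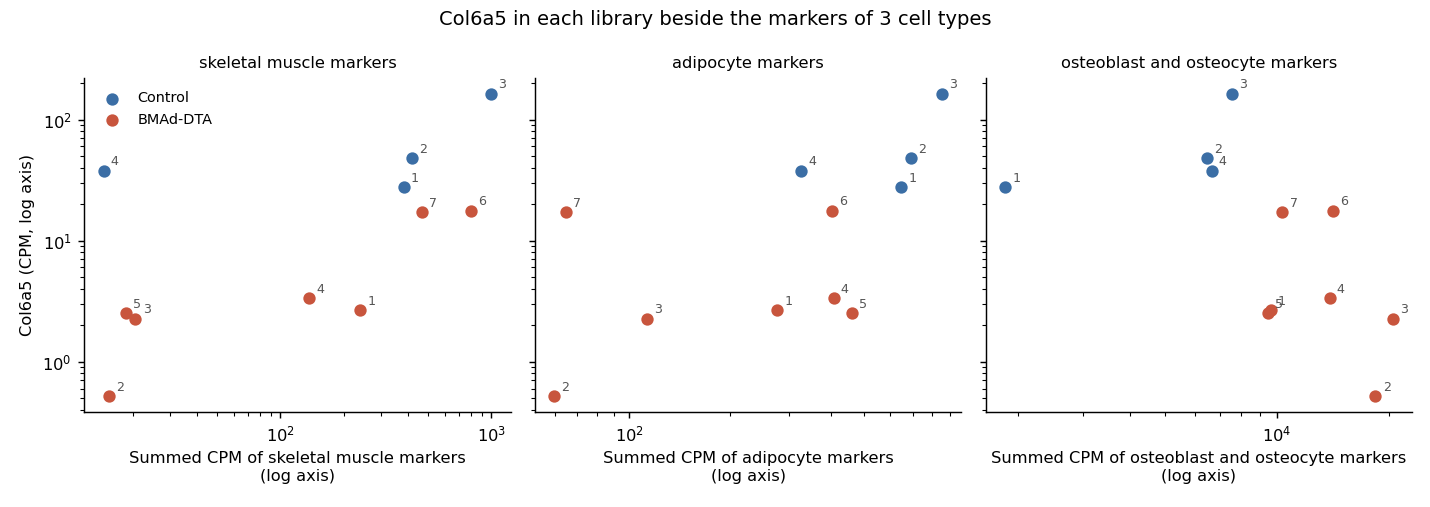
Col6a5 in each library (CPM, log axis) beside the summed CPM of 10 skeletal muscle, 6 adipocyte and 8 osteoblast and osteocyte markers (log axes), with replicate numbers beside the points. Control 4 and BMAd-DTA 2, 3 and 5 had muscle sums of 14.5 to 20.5 CPM, where Col6a5 was 37.8 CPM in the control and 0.516 to 2.53 CPM in the BMAd-DTA libraries.

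Genes for proteins that bind, build or cut collagen VI were taken from 3 lists of 35 genes, of which 33 were tested. Several of these proteins also act on other collagens, so their levels are not particular to collagen VI. Matn1 and Matn3, which code for matrilins that link collagen VI to cartilage matrix, did not pass the filter. Of the 33 genes, 3 rose in BMAd-DTA bones and none fell, against 0.0788% of all genes in either direction (edgeR's quasi-likelihood test, Benjamini-Hochberg adjustment over 16496 genes). The fitted level was higher in BMAd-DTA for 28 of 33, beside 50.4% of all genes. The groups did not overlap for 6 genes, all of them higher in BMAd-DTA, beside 1.78% of all genes. The lists were drawn up with earlier results of these data known. These counts, and those of each list below, are therefore a description, and no excess is read from them.

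Of 9 receptors, 2 rose, both collagen-binding integrin α chains. Itga10, whose integrin binds cartilage collagens, was 20.4 ± 2.17 CPM (SD, n = 4) in controls and 35.8 ± 6.35 CPM (SD, n = 7) in BMAd-DTA, a log2 fold change of 0.81 (SE 0.13, edgeR adjusted p = 0.0384). Itga11, whose integrin is a collagen receptor of mesenchymal cells, was 18.4 ± 1.75 and 28.9 ± 2.73 CPM, a log2 fold change of 0.65 (SE 0.09, edgeR adjusted p = 0.0326). For both genes, all 7 BMAd-DTA libraries lay above all 4 controls. Itgb1, the β chain they share and the most abundant receptor gene at 72.2 CPM per kb, had a log2 fold change of -0.003 (SE 0.07, edgeR adjusted p = 0.988). Lair1, a collagen receptor of immune cells, had the lowest log2 fold change of the list, -0.19 (SE 0.13, edgeR adjusted p = 0.490).

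Antxr1, Antxr2 and Cspg4 belong to the 9 receptors and are named for their role, a choice made after their values were seen. The first pair are anthrax toxin receptors that bind collagen VI, and the last codes for the NG2 proteoglycan. Their log2 fold changes were 0.18 (SE 0.08), 0.37 (SE 0.14) and 0.35 (SE 0.13), with edgeR adjusted p values of 0.287, 0.205 and 0.176. The median over the receptors was 0.18, beside 0.0018 over all genes.

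Of 12 matrix partners tested, all 12 had a higher fitted level in BMAd-DTA, and none passed the test. By an unadjusted p under 0.05 there were 5, beside 16.4% of all genes tested. Bgn, which codes for biglycan, a small proteoglycan that helps to order collagen VI filaments and the most abundant partner at 212 CPM per kb, was 1023 ± 133 CPM (SD, n = 4) in controls and 1449 ± 61.7 CPM (SD, n = 7) in BMAd-DTA. Its log2 fold change was 0.50 (SE 0.09, edgeR adjusted p = 0.0531), and its groups did not overlap. Col2a1, the main cartilage collagen, had the largest log2 fold change of the list, 1.11 (SE 0.22, edgeR adjusted p = 0.0675), from 217 ± 76.3 CPM in controls to 468 ± 71.2 CPM in BMAd-DTA, again without overlap. Vwa1, which codes for WARP, a small partner of collagen VI and perlecan, had the smallest, 0.08 (SE 0.17, edgeR adjusted p = 0.859). The median of the list was 0.20.

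Of 12 genes for synthesis and cleavage, 1 rose and 9 had an unadjusted p under 0.05, beside 16.4% of all genes tested. Mmp2, a matrix protease, was 95.2 ± 8.01 CPM (SD, n = 4) in controls and 169 ± 29.2 CPM (SD, n = 7) in BMAd-DTA, a log2 fold change of 0.83 (SE 0.12, edgeR adjusted p = 0.0326), without overlap. Bmp1, a procollagen protease, had the largest log2 fold change of the list, 0.94 (SE 0.24, edgeR adjusted p = 0.0895). Plod3, a lysyl hydroxylase that also glycosylates collagen VI, had the smallest, -0.05 (SE 0.06, edgeR adjusted p = 0.754). P4hb, the β subunit of prolyl 4-hydroxylase, was the most abundant at 192 CPM per kb and had a log2 fold change of 0.10 (SE 0.08, edgeR adjusted p = 0.559). Mmp14, a membrane protease, and Serpinh1, the collagen chaperone HSP47, also belong to this list. They are named for their role, a choice made after their values were seen. Their log2 fold changes were 0.54 (SE 0.15) and 0.67 (SE 0.16), with edgeR adjusted p values of 0.0992 and 0.0724. The median of the list was 0.56.

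The 3 calls did not hold under every alternative. They held with DESeq2, the method the study named. Its adjusted p was 2.57e-06 for Itga10, 7.39e-07 for Itga11 and 1.34e-07 for Mmp2. With the muscle score as a covariate the edgeR adjusted p was 0.0836 for Itga10, 0.0684 for Itga11 and 0.0684 for Mmp2. Without Control 3 and BMAd-DTA 6 it was 0.0625, 0.0588 and 0.0588. All 3 also missed the threshold without Control 1, Control 2, BMAd-DTA 1 or BMAd-DTA 6, with edgeR adjusted p up to 0.164. Itga10 missed it as well without BMAd-DTA 2, 4, 5 or 7 and Mmp2 without BMAd-DTA 4, with edgeR adjusted p from 0.0519 to 0.0713. The 8 markers of osteoblasts and osteocytes moved the same way as these genes, summing to 1845 to 7568 CPM in controls and 9465 to 20521 CPM in BMAd-DTA, with a median log2 fold change of 0.90. All 8 had an unadjusted p under 0.05, as did 16.4% of all genes tested, and none passed the adjusted test. The 5 chondrocyte markers summed to 39.2 to 84.5 CPM in controls and 57.7 to 89.0 CPM in BMAd-DTA, and the 5 tendon markers to 119 to 162 CPM and 123 to 259 CPM. Their part in the change of the partner genes was not tested.

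**Figure D5:**
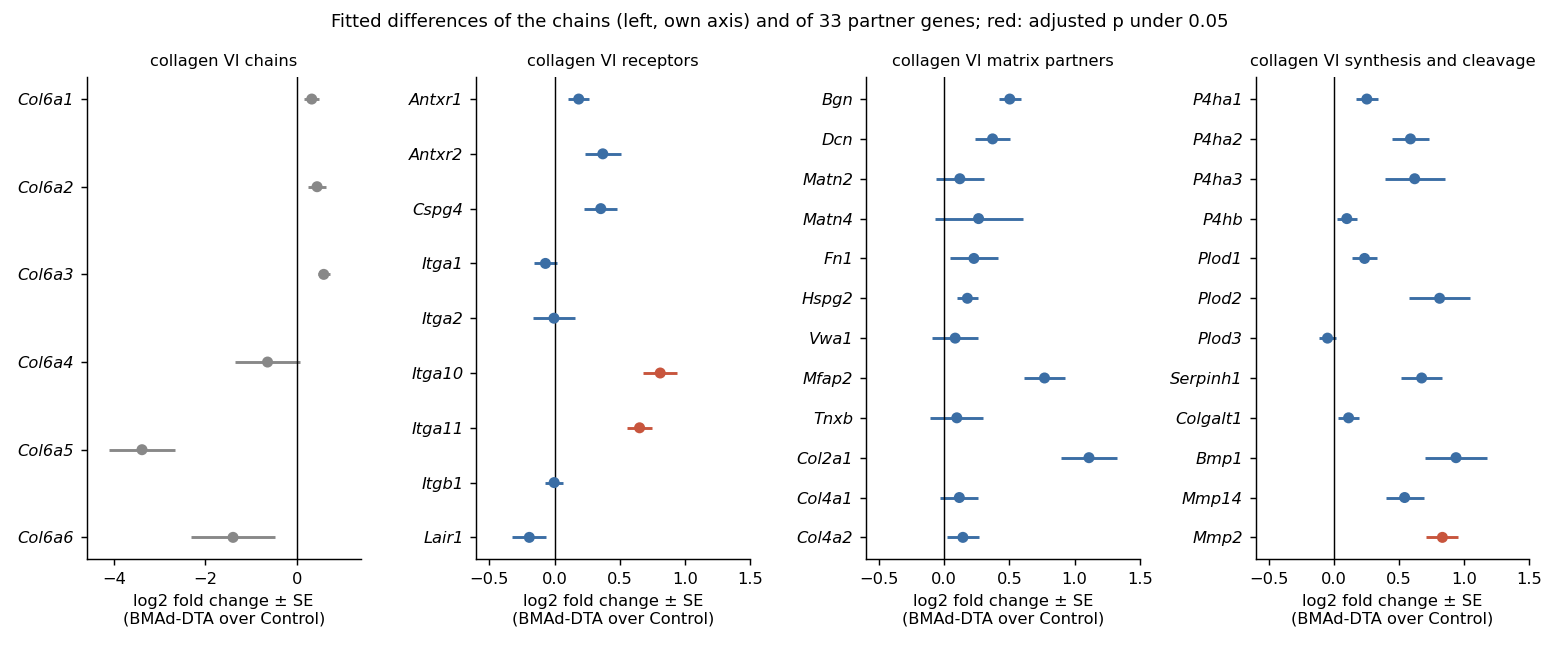
Fitted log2 fold change ± SE (BMAd-DTA over Control, 4 and 7 mice) of the 6 chains, on an axis of its own, and of the 33 tested partner genes in 3 lists. Red marks the 3 partner genes with an adjusted p under 0.05, Itga10, Itga11 and Mmp2, and the chains are gray because they were not tested. Col6a5 lay at -3.39 and 28 of 33 partner genes lay above 0.

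The genes whose levels were most like a chain's from mouse to mouse were ranked by Pearson r of group-centred log2 CPM over 11 libraries, among 12969 genes outside the family that averaged at least 50 counts. Such a ranking always has high values at its top, so they are given as a description. Mprip came first for Col6a1 and for Col6a2, with an r of 0.96 and 0.92, and for the mean of Col6a1, Col6a2 and Col6a3, with an r of 0.95. Nbea (0.94) and Kng1 (0.94) followed for Col6a1, Igfbp7 (0.90) and Erbb2 (0.90) for Col6a2, and Kng2 (0.92) and Fbn1 (0.92) for the mean. For Col6a3 they were Parva (0.97), Slc4a2 (0.94) and Ace (0.92). For Col6a5 they were Cln3 (0.97), Ly6g5b (0.91) and Ndufaf6 (0.91), whose r over all libraries without centring was 0.61, 0.62 and 0.67, and whose own log2 fold changes between genotypes were -0.003, -0.06 and -0.06. For Col6a4 they were Scyl2 (0.95), Sms (0.94) and Kat6a (0.93), and for Col6a6 Asb3 (0.96), Ctns (0.89) and Gm8210 (0.88), on the few counts of those chains.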

How the data were processed

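Total RNA from whole distal tibiae, with 1 library per mouse, was sequenced strand-specifically in pairs (PE100). The authors checked reads with FastQC 0.11.9, aligned them to mm10 with STAR and deposited raw counts of read pairs per gene, both per library and as a merged table, without normalization. The annotation release is not given in the sources used here. The merged counts equaled the read-strand column for all 6 chains, with opposite-strand counts of 0.136% to 8.87% beside them. Multimapping pairs, 6.68% to 9.07% of each library, are not counted, and they limit similar chains. Unmapped, multimapping, unassigned and ambiguous lines entered neither library sizes nor tests.

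The members and gene lists were chosen with earlier results of these data known. The test was edgeR's quasi-likelihood F test on raw counts (edgeR 4.0.16 in R 4.3.3, with filterByExpr on the groups, TMM factors and genotype alone in glmQLFit, two-sided, Benjamini-Hochberg over 16496 genes, adjusted p under 0.05). The study named DESeq2, which was kept as an alternative (1.42.0). Log2 CPM used a prior count of 2. CPM per kb used merged exons of GENCODE M21. Correlations used 100000 permutations of pairings (scipy 1.17.1). All 6 chains matched the RefSeq promoter table. Besides the chains, the text names partner genes that were called, had the largest or smallest log2 fold change or the highest CPM per kb in a list, and the 3 genes most like each chain. Genes beside the loci are the nearest tested ones. Intervals and the floor of 3 counts cover counting error only. No pair of libraries agreed within sampling noise. The fit was tested on simulated data. The alternatives were DESeq2, RLE scaling, no filter, at least 10 counts in 4 libraries, strand-blind counts, a muscle score as covariate, the longest transcript as length and each library left out, with 1 alternative added after seeing the data. Protein sequences were not used here.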

Additional observations from a re-analysis of the deposited data

Results flagged for a closer look

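Within groups of 4 to 7 libraries, the highest or lowest library was compared with the rest by Dixon's criterion in 48 groups of values, and 5 were flagged, where chance flags about 1 in 20. Col6a5 was 164 CPM in Control 3 against 47.9 CPM in the next control, and its share of the chains' CPM per kb there was 13.4% against 5.995%. Control 3 is also the library richest in skeletal muscle markers and in adipocyte markers. Col6a3 was 215 CPM in BMAd-DTA 1 against 166 CPM in the next library of its group. Mmp14 was 127 CPM in Control 3 against 97.7 CPM in the next control. Vwa1 was 4.65 CPM in Control 2 against 6.56 CPM in the next control above it.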

How the results depend on the processing

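With DESeq2, 845 genes and 11 partner genes passed the threshold, with RLE scaling 20 genes, with the muscle score as covariate 3 genes and 0 partner genes, and without the 2 libraries richest in muscle markers, an alternative chosen after seeing the data, 1 gene and 0 partner genes, beside 13 and 3. With edgeR and the muscle score, 2361 genes had an unadjusted p under 0.05, and without the muscle-rich libraries 3139. Leaving out each library in turn gave 0 to 292 genes and 0 to 10 partner genes, with 0 genes without Control 1, Control 2, BMAd-DTA 1 or BMAd-DTA 6, and 292 without Control 3. The causes were not tested. The log2 fold changes of the 6 chains kept their sign under every alternative that fitted them, and Col6a6 did not pass the filter with strand-blind counts, without BMAd-DTA 6, without BMAd-DTA 7 or without the muscle-rich libraries. Those of Itgb1 (-0.042 to 0.047) and Vwa1 (-0.032 to 0.165) changed sign when a library was left out. Between 1 and 3 correlations passed with a library left out, and Col6a1 with Col6a2 kept an r of 0.93 to 0.97. CPM per kb of Col6a2 was 51.5 with the longest transcript in place of 30.4. No paired analysis was possible because the labels give no numbers that pair mice across genotypes.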
